A study of Canis lupus familiaris with 34 samples.

Results

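The genes described here are 44 listed genes of the cell division cycle, measured in canine tumor cells with Affymetrix Canine_2 arrays, on which each transcript is read by 1 or more probe sets. A gene was taken as measured where a probe set carried its symbol alone, and the probe set with the highest mean over all 34 arrays stood for it. By this rule 38 of the 44 genes were measured, of 15115 genes in all with a probe set of their own, and 26 of the 38 had several probe sets. MKI67, which encodes the proliferation marker Ki-67, had no such probe set, and neither had CCNB1, BUB1, MAD2L1, KIF20A or CENPE. The values are log2 intensities.

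Dividing cells switch on these genes in waves. E2F factors drive the genes of S phase, among them the E cyclins (CCNE1 and CCNE2), which carry cells from G1 into S phase, the MCM genes, whose products form the helicase that opens replication origins, CDC6 and CDC45, which load and activate it, PCNA, the sliding clamp of the polymerases, and RRM2, TYMS and TK1, which make deoxynucleotides. Later genes, many of them driven by FOXM1, serve mitosis: cyclins A2 and B2 with CDK1, the Aurora and Polo kinases, the spindle checkpoint kinases TTK and BUB1B, CDC20 and UBE2C, which act with the anaphase-promoting complex, and the proteins of the spindle, kinetochore and condensed chromosomes, such as KIF11, KIF23, CENPF, NUSAP1, PRC1 and TOP2A. In tumor pathology the level of this program is read as a measure of how many cells are in cycle, and diffuse large B cell lymphoma is counted among the aggressive lymphomas of dogs and T-zone lymphoma among the indolent ones. The 38 measured genes were divided into 15 of S phase entry and replication, 13 mitotic cyclins, kinases and checkpoint genes, and 10 genes of the spindle, kinetochore and chromosomes.

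Hemangiosarcoma is a malignant tumor attributed to the cells that line blood vessels. Its group held 10 cultured lines, 6 from Golden Retriever dogs (ChadG4, ChadG6, ChadG8, Frog, Journey and Tucker) and 1 each from a Rottweiler (Joey), a Golden Retriever x Great Pyrenees (DD1), a Portuguese Water Dog (ChadP9) and a Dalmation (Dal4). The other groups were 5 osteosarcoma lines from Golden Retriever dogs (OSCA20, OSCA23, OSCA59, OSCA75 and OSCA71), primary cells of 6 diffuse large B cell lymphomas (DLBCL), of 6 T-zone lymphomas and of 1 marginal zone lymphoma (Bitsy), all from Golden Retriever dogs, primary cells of 3 leukemias, and low-passage cultures of 3 splenic hematomas, a blood-filled but non-malignant lesion (Pippin, a Golden Retriever; Baxter, a Standard Poodle; and Kylie, a Keeshond). Of the leukemias, Rascal was an acute lymphoblastic leukemia from a dog labelled a Golden Retriever mix, and Maddle and Forrest were chronic lymphocytic leukemias from Golden Retriever dogs. Each array was 1 line, culture or patient, with no treatment in the labels; hemangiosarcoma and hematoma cells had been grown in conditions chosen for endothelial growth, and Frog and Journey came from related dogs.

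Some features of the whole series bear on the values below. In the hemangiosarcoma lines 2 of 10 endothelial markers lay above the array median on at least 5 of the 10 arrays, and all 8 of 8 fibroblast and mural markers did; the 8 markers averaged 10.30 to 12.37 in the hemangiosarcoma lines, 11.11 to 13.10 in the osteosarcoma lines and 11.96 to 12.59 in the hematoma cultures, against 5.48 to 9.08 in DLBCL and 5.52 to 7.35 in T-zone lymphoma. Of 5 osteoblast markers 1 did so in the osteosarcoma lines. The gap between the 3′ and 5′ ends of an actin control, which widens as RNA is degraded, was 3.03 or more in the 3 leukemias, in Thunder and Fire among the T-zone lymphomas, in Chieftain among the DLBCL and in OSCA59, OSCA75 and OSCA71, and at most 2.52 on all other arrays. A second actin control did not mark the same arrays. It gave 0.52 to 1.20 in the leukemias, but −0.08 in OSCA75 to 0.21 in Chieftain over the rest of these arrays. Tucker had 0.69 and Benson 0.55 in it. The mean of all 15115 genes lay between 6.67 and 6.80 on every array. The hybridization controls, which read material added to each sample, averaged 9.25 to 9.78 in the hemangiosarcoma lines and 9.45 to 10.16 in the hematoma cultures. They averaged 10.00 to 10.82 in osteosarcoma, 10.26 to 11.32 in DLBCL, 10.04 to 10.70 in T-zone lymphoma and 10.69 to 11.14 in leukemia. Array processing thus cannot be told apart from group where hemangiosarcoma lines are compared with other tumors.

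DLBCL had the highest and most even levels of the cell cycle genes. The mean over the 38 genes was 8.34 to 9.63 in the 6 DLBCL (9.16 ± 0.48, SD), against 6.93 to 9.33 in the 6 T-zone lymphomas (7.76 ± 0.92) and 8.21, 6.52 and 6.54 in Rascal, Maddle and Forrest. Bitsy, the single marginal zone lymphoma, stood at 7.97. The cultured groups covered the whole range: the hemangiosarcoma lines reached from 6.16 in Tucker to 9.40 in Dal4 (7.76 ± 0.996, n = 10), the osteosarcoma lines from 6.12 in OSCA59 to 9.71 in OSCA71 (7.84 ± 1.50, n = 5), and the hematoma cultures of Pippin, Baxter and Kylie stood at 6.44, 9.42 and 8.55. The highest and the lowest of the 34 arrays were thus both osteosarcoma lines. In these bulk samples a larger share of cells in cycle and more transcript in each cycling cell cannot be told apart.

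**Figure D1:**
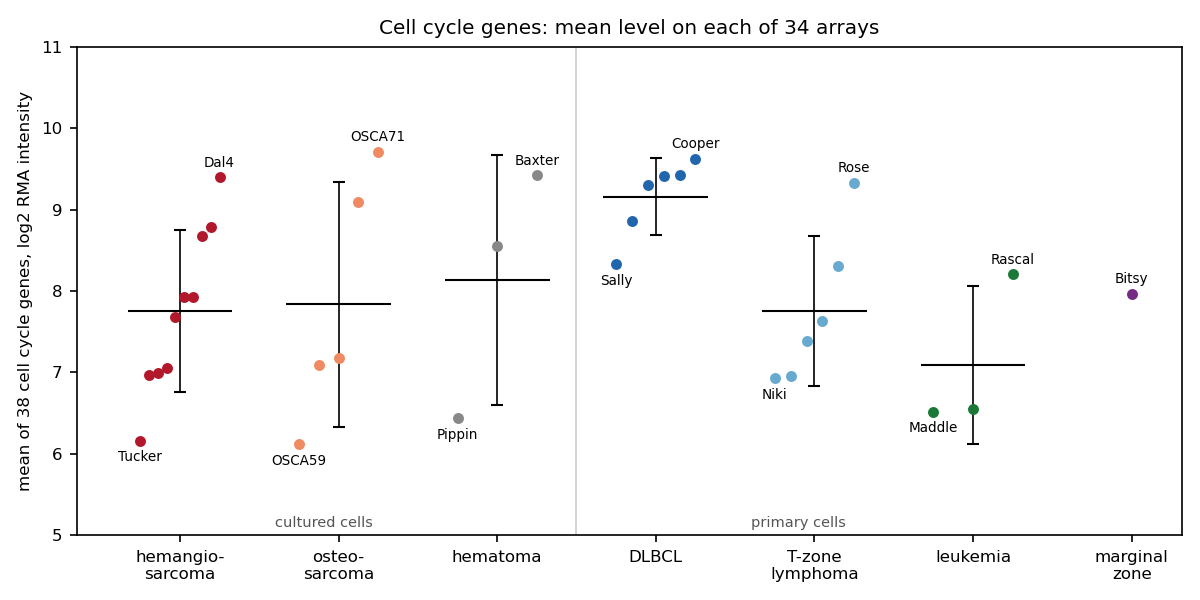
Mean log2 intensity of the 38 cell cycle genes on each array (points), by group, with the group mean (bar) and SD (whiskers); the highest and lowest array of each group are named. The 6 DLBCL lie between 8.34 and 9.63, while the hemangiosarcoma lines run from 6.16 to 9.40 and the osteosarcoma lines from 6.12 to 9.71.

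The cell cycle genes varied widely within groups. The median SD of the 38 genes was 1.03 among the hemangiosarcoma lines, where that of all genes was 0.26, 1.70 against 0.31 among the osteosarcoma lines, and 1.03 against 0.34 among the T-zone lymphomas; in DLBCL it was 0.53 against 0.37. In most groups 1 array was at the extreme for most of the genes. Among the hemangiosarcoma lines Dal4 was highest for 30 of the 38 genes and Tucker lowest for 28; among the osteosarcoma lines OSCA71 was highest for 34 and OSCA59 lowest for 32. Baxter was the highest hematoma culture for 36 genes and Pippin the lowest for all 38. Rose had the highest value of the T-zone lymphomas for 35 genes, Rascal that of the leukemias for 35, and Sally the lowest of the DLBCL for 32. The other extremes were divided: the highest DLBCL was Cooper for 16 genes, Chieftain for 8, Snuggles for 7 and Kaycee for 5, the lowest T-zone lymphoma was Niki for 17 and Fire for 17, and the lowest leukemia was Forrest for 21 and Maddle for 16. Between the 6 groups with more than 1 array, the mean was highest in DLBCL for 34 of the 38 genes, which holds for 24.3% of all genes, and lowest in leukemia for 23, which holds for 14.1%.

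TOP2A encodes topoisomerase II alpha, which untangles chromosomes before they separate, and shows the pattern gene by gene. It had 10.19, 11.59 and 12.41 as the lowest, median and highest value in DLBCL, against 7.66, 8.90 and 11.70 in T-zone lymphoma and 9.33, 6.80 and 6.95 in Rascal, Maddle and Forrest. In hemangiosarcoma the lowest, median and highest were 4.46, 7.50 and 9.47, OSCA20, OSCA23, OSCA59, OSCA75 and OSCA71 had 6.25, 7.86, 6.65, 11.003 and 11.80, and Pippin, Baxter and Kylie had 5.13, 9.69 and 10.28. Every DLBCL thus lay above every hemangiosarcoma line and every leukemia, whereas the osteosarcoma lines split into 3 low and 2 high ones and the hematoma cultures into 1 low and 2 high ones. Such a separation of DLBCL held for 6 of the 38 genes against hemangiosarcoma and 16 against leukemia, where it held for 9.23% and 7.37% of all genes. A second TOP2A probe set followed the first across the 34 arrays (r = 0.91, a description across arrays of several tumor types) but did not give the same differences in every comparison, as given below.

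**Figure D2:**
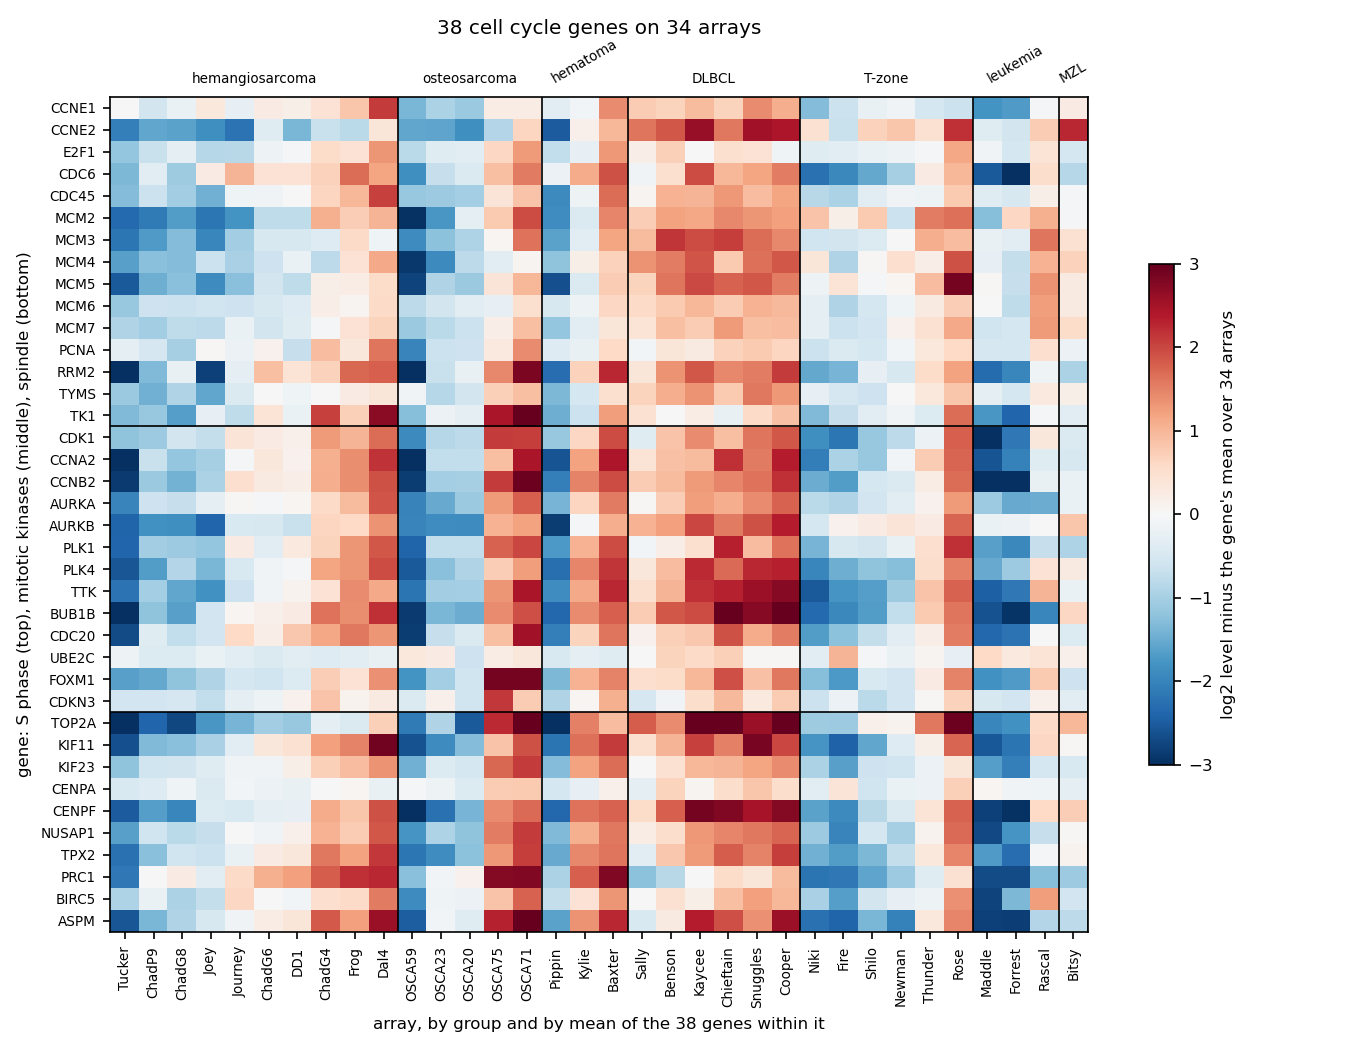
Log2 level of each of the 38 genes minus its own mean over the 34 arrays (color, from −3 to 3 with values beyond at the end color), with genes in rows by role and arrays in columns by group and by their mean over the 38 genes. DLBCL columns are mostly high, with exceptions such as PRC1 in Sally (5.70) and Benson (6.11), each cultured group runs from low to high arrays, and Rascal is high for the MCM genes and low for BUB1B (4.98); the row of UBE2C varies little.

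DLBCL was compared with T-zone lymphoma, 2 lymphomas sampled in the same way as primary cells. All 38 genes had a higher mean in DLBCL, where 53.7% of all genes did, with a median difference of 1.42 on the log2 scale against 0.03 for all genes. Of the 37 genes that were tested, 24 were higher in DLBCL at an adjusted p under 0.05 and none was lower; 9.14% of all tested probe sets were higher by the same criterion and 9.32% lower. The genes that passed were 9 of 14 of S phase and replication, 8 of 13 mitotic cyclins, kinases and checkpoint genes, and 7 of 10 of the spindle and chromosomes. E2F1, which lay above the array median on only 11 of the 34 arrays, did not reach the level needed for testing.

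Cyclin E1 separated these lymphomas fully. CCNE1 had 7.43, 7.62 and 8.18 as the lowest, median and highest value in DLBCL, against 5.46, 6.18 and 6.65 in T-zone lymphoma, and was 1.51 higher (SE 0.22, adjusted p = 0.000449); its second probe set gave 1.43 (adjusted p = 0.00101). It was the only one of the 38 genes whose groups did not overlap, which held in this direction for 2.9% of all genes. A count of 1 in 38 lies near that share. For MCM3, a helicase subunit, the means were 9.61 ± 0.45 in DLBCL and 7.98 ± 0.75 in T-zone lymphoma (SD, n = 6 each), a difference of 1.63 (SE 0.33, adjusted p = 0.00415).

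Among the checkpoint and spindle genes the ranges overlapped. BUB1B, the checkpoint kinase BubR1, had 7.69, 9.27 and 10.06 as the lowest, median and highest value in DLBCL, against 4.61, 5.74 and 8.55 in T-zone lymphoma, a 7.74-fold difference (2.95, SE 0.64, adjusted p = 0.00637). PLK4, the kinase that starts centriole duplication, was 2.27 higher (SE 0.56, adjusted p = 0.0125), CENPF, a kinetochore protein of G2 and mitosis, 2.63 higher (SE 0.58, adjusted p = 0.00653), and KIF23, a kinesin of the cytokinetic midzone, 1.46 higher (SE 0.32, adjusted p = 0.00669). Rose, at 8.55 for BUB1B and 8.33 for CENPF, lay within the DLBCL range. TOP2A was 2.19 higher (SE 0.63, adjusted p = 0.0270) and 2.74 higher with its second probe set (adjusted p = 0.0170); its call was lost when any of 6 of the 12 arrays was left out. The genes that did not pass were MCM2, MCM5, MCM7, PCNA, TK1, CCNA2, PLK1, CDC20, UBE2C, CDKN3, CENPA, PRC1 and BIRC5, with differences of 0.29 for UBE2C to 1.68 for CCNA2.

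How many genes passed depended on the arrays and on the fit more than the direction did. The count was 15 without Shilo and 33 without Rose, and 11 when all 34 arrays were fitted together, while the median stayed between 1.21 and 1.62 with any 1 array left out. The actin gap was 0.67 to 3.46 in DLBCL, against −0.30 to 4.03 in T-zone lymphoma, and without Chieftain, Thunder and Fire 10 genes passed with a median difference of 1.19. The 8 T cell markers averaged 8.30 to 8.90 in DLBCL, against 10.39 to 11.40 in T-zone lymphoma, with 7 and 8 of them above the array median on 3 or more of the 6 arrays; the 6 B cell markers averaged 8.64 to 9.13 in DLBCL, against 6.60 to 8.81 in T-zone lymphoma, with 5 of 6 above it in each group. The part of these cell mixtures in the differences was not tested.

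**Figure D3:**
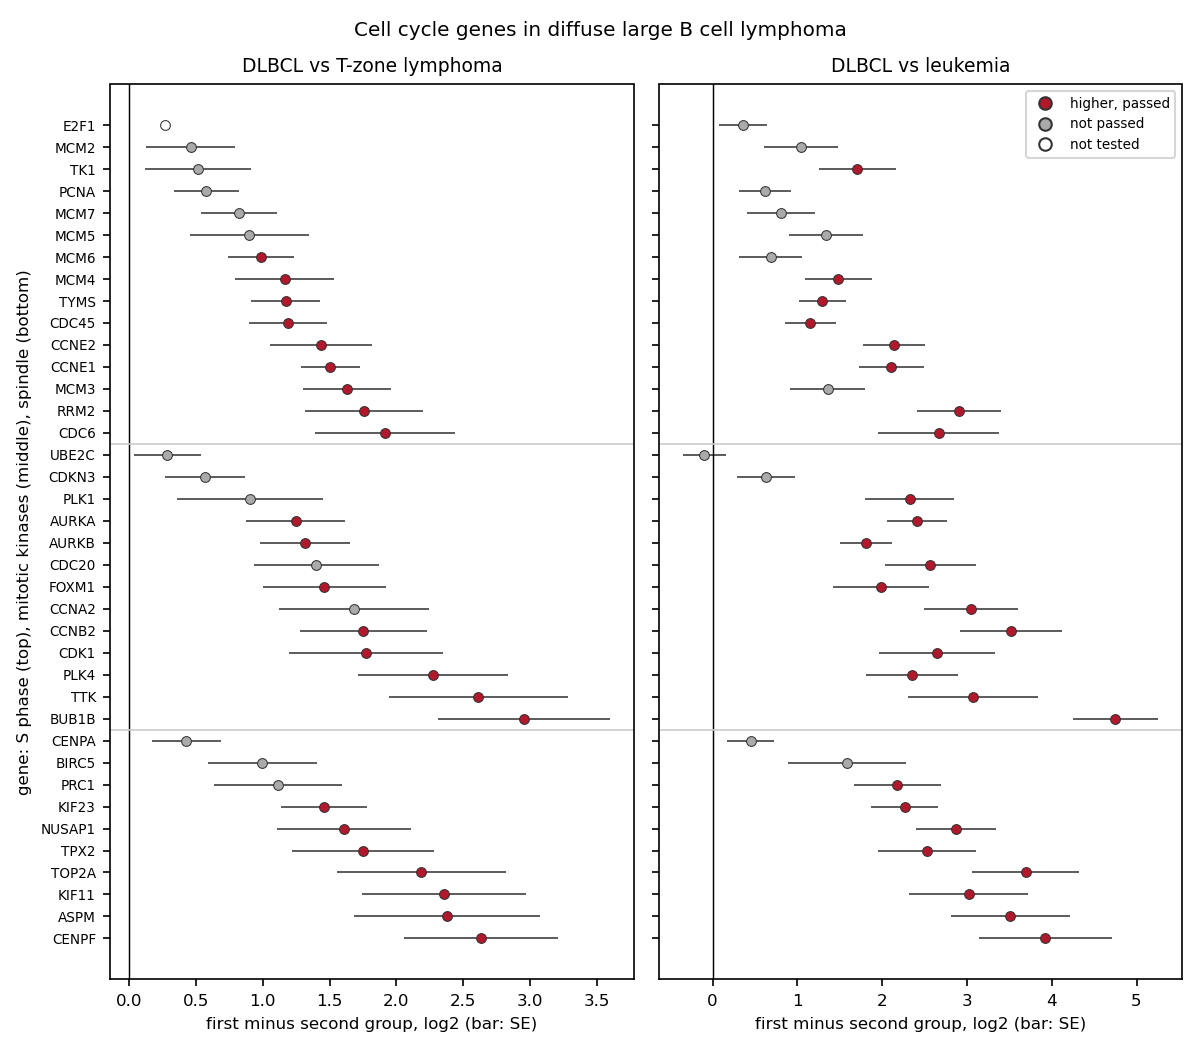
Difference in mean log2 intensity (points) with its SE (bars) for each cell cycle gene, DLBCL minus T-zone lymphoma on the left and DLBCL minus leukemia on the right; red points passed an adjusted p of 0.05, grey did not, and the open point was not tested. All points on the left lie above 0, and on the right all but UBE2C do.

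Against the 3 leukemias the same DLBCL arrays stood higher by more. The median difference was 2.16, against −0.02 for all genes; 37 of the 38 genes had a higher mean in DLBCL, where 48.5% of all genes did, and 27 were higher at an adjusted p under 0.05 with none lower. Of all tested probe sets 7.3% were higher and 6.15% lower. The genes that passed were 8 of 15 of S phase and replication, 11 of 13 mitotic cyclins, kinases and checkpoint genes, and 8 of 10 of the spindle and chromosomes. On most of the leukemia arrays 11 of 15, 7 of 13 and 5 of 10 genes of these roles lay above the array median. Some of the genes that passed were therefore tested only because of their level in DLBCL. The groups did not overlap for 16 of the 38 genes, with the DLBCL above, as held for 7.37% of all genes.

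BUB1B had the largest difference. Its lowest, median and highest values were 7.69, 9.27 and 10.06 in DLBCL, against 4.98, 4.31 and 3.99 in Rascal, Maddle and Forrest, a difference of 4.75 or 26.9-fold (SE 0.50, adjusted p = 0.000453). It lay below the array median (5.64 to 5.66) in all 3 leukemias, Rascal included. It thus entered the test only through the DLBCL arrays, where it was high, and the fold difference is set against low readings. AURKA, the mitotic kinase of the spindle poles, had 8.11, 9.24 and 9.83 in DLBCL, against 6.59, 6.99 and 6.55 in Rascal, Maddle and Forrest, and was 2.41 higher (SE 0.35, adjusted p = 0.00285), again without setting Rascal apart.

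Other genes put Rascal, the acute leukemia, above the chronic ones. RRM2, a subunit of ribonucleotide reductase, had 9.80, 10.91 and 11.53 as the lowest, median and highest value in DLBCL, against 9.29, 7.13 and 7.47 in Rascal, Maddle and Forrest (2.91 higher, SE 0.50, adjusted p = 0.00562). CCNE2, the second E cyclin, had 9.30, 9.87 and 10.34 in DLBCL, against 8.50, 7.36 and 7.19 in the leukemias (2.14 higher, SE 0.37, adjusted p = 0.00574). NUSAP1, a microtubule-binding protein of the spindle, was 2.87 higher (SE 0.47, adjusted p = 0.00500) and TOP2A 3.69 higher (SE 0.63, adjusted p = 0.00574). In these genes Rascal lay 1 log2 unit or more above both chronic leukemias and still below every DLBCL. Rascal reached 7.15 for CENPF and 7.25 for TTK, within the DLBCL ranges, where Maddle and Forrest had at most 4.09 for either gene. UBE2C, the ubiquitin-conjugating enzyme of the anaphase-promoting complex, was the single gene with a lower mean in DLBCL, by 0.10 (SE 0.25, adjusted p = 0.830), and its second tested probe set was 0.20 higher.

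The count varied with the leukemia left out: it was 34 without Rascal, 13 without Maddle and 11 without Forrest, with medians of 1.92 to 2.68 over all arrays left out. BUB1B, AURKA, RRM2, CCNE2, NUSAP1 and TOP2A kept their calls under every array left out. All 3 leukemias had an actin gap of 3.44 to 3.92, above the 0.67 to 2.0 of the DLBCL other than Chieftain, and a second actin control gave 0.52 to 1.20 in leukemia against −0.09 to 0.55 in DLBCL, so that RNA quality and tumor type cannot be told apart here. The B cell markers averaged 5.66 to 5.73 in leukemia, against 8.64 to 9.13 in DLBCL. The T cell markers averaged 8.64 to 10.92 in leukemia, against 8.30 to 8.90 in DLBCL. The part of these cell types in the differences was not tested.

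Between T-zone lymphoma and leukemia no cell cycle gene passed. The median difference was 0.63 in favor of T-zone lymphoma, against −0.03 for all genes, and 33 of the 38 genes had a higher mean, where 46% of all genes did. None of the 37 tested genes passed an adjusted p of 0.05, in a comparison where 0.279% of probe sets were higher and 0.27% lower, and at an unadjusted p under 0.05 AURKA alone did (1.16 higher, SE 0.44, p = 0.0248, adjusted p = 0.278). AURKA was also the only gene whose groups did not overlap, with 7.18 as the lowest T-zone lymphoma against 6.99 as the highest leukemia. This held for 2.77% of all genes, a share that 1 in 38 lies near. The largest differences by role were 1.19 for TK1, the thymidine salvage kinase (SE 0.65, adjusted p = 0.423), 1.80 for BUB1B (SE 0.83, adjusted p = 0.352) and 1.50 for TOP2A (SE 0.92, adjusted p = 0.471). With Rascal left out the median was 1.31 and with Maddle left out 0.31, and no gene passed in either case.

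The study set hemangiosarcoma lines against low-passage hematoma cultures to compare malignant with non-malignant cells, both grown in conditions chosen for endothelial growth. It used cultured cells in part because these were surmised to lessen differences in proliferation signatures. No cell cycle gene passed the test between them. None of the 38 tested genes passed an adjusted p of 0.1, at which 0.133% of probe sets were higher and 0.133% lower, and none had an unadjusted p under 0.05; the smallest adjusted p was 0.687. The mean was lower in hemangiosarcoma for 31 genes, where 37% of all genes were lower, and the median difference was −0.44 against 0.07 for all genes.

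The 3 hematoma cultures were far apart in these genes. TTK, the checkpoint kinase Mps1, had 4.01, 5.86 and 7.65 as the lowest, median and highest value in hemangiosarcoma, against 4.37, 8.50 and 7.37 in Pippin, Baxter and Kylie (−0.95, SE 0.86, adjusted p = 0.726). CCNE2 had 5.51, 6.25 and 8.10 in hemangiosarcoma, against 5.24, 8.72 and 7.88 (−0.76, SE 0.64, adjusted p = 0.702), and TOP2A differed by −1.08 (SE 1.04, adjusted p = 0.744). In each of the 3 genes Pippin lay near or below the lowest hemangiosarcoma lines while Baxter stood above all of them. The median difference was −1.29 without Pippin and 0.24 without Baxter, so that its sign depended on 1 culture. Kylie also differed in its hybridization controls, which averaged 10.16 there, against 9.25 to 9.78 in the hemangiosarcoma lines and 9.48 and 9.45 in Pippin and Baxter.

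Nor did any of these genes pass between the osteosarcoma lines and the hematoma cultures. None of the 38 genes passed an adjusted p of 0.05 or an unadjusted p of 0.05, where 1.65% of probe sets were higher and 3.1% lower, and the median was −0.28 against 0.10 for all genes. TK1 had 6.70, 6.81, 5.70, 9.43 and 10.36 in OSCA20, OSCA23, OSCA59, OSCA75 and OSCA71, against 5.51, 8.23 and 6.34 in Pippin, Baxter and Kylie (1.11, SE 1.10, adjusted p = 0.549). PLK4 had 6.07, 5.72, 4.47, 7.70 and 8.22 in the osteosarcoma lines, against 4.71, 9.11 and 8.44 in the hematoma cultures (−0.99, SE 1.12, adjusted p = 0.602). KIF11, the kinesin that pushes spindle poles apart, differed by −1.13 (SE 1.26, adjusted p = 0.594). In both groups low and high cultures stood side by side, and the median ran from −1.26 without Pippin to 0.40 without Baxter and 0.17 without OSCA59. Without OSCA20 UBE2C passed, 0.65 higher in the osteosarcoma lines (adjusted p = 0.0477).

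Between hemangiosarcoma and osteosarcoma lines, the 2 sets of cultured tumor cells, 1 of 38 genes passed an adjusted p of 0.05, where 16.1% of probe sets were higher and 11.7% lower. The median SDs of the cell cycle genes, 1.03 and 1.70, exceeded the 0.26 and 0.31 of all genes, so a given difference passed less readily for them. The median difference was −0.11, against −0.02 for all genes. UBE2C was that gene: it had 6.69, 6.80 and 6.99 as the lowest, median and highest value in hemangiosarcoma, against 6.52, 7.37, 7.46, 7.35 and 7.49 in OSCA20, OSCA23, OSCA59, OSCA75 and OSCA71, a difference of −0.42 (SE 0.14, adjusted p = 0.0396). OSCA20 lay below all hemangiosarcoma lines and the other osteosarcoma lines above all of them. The call was lost under 11 of the 15 arrays left out and under 5 of 11 other settings, among them the mean of the gene's probe sets. The actin gap of OSCA59, OSCA75 and OSCA71 was 3.03 to 3.27, and without these lines no gene passed. Leaving out OSCA71, OSCA75 or Tucker turned the median positive (0.37, 0.22 and 0.09).

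UBE2C did not follow the rest of the set. Its SD was 0.10 among the hemangiosarcoma lines, in which the median SD of the 38 genes was 1.03, and its 2 other probe sets correlated with it at 0.55 and 0.46 across the 34 arrays, as a description. MCM7 (0.63 for its other probe set) was also read differently by its probe sets. For CDKN3, a phosphatase that acts on cyclin-dependent kinases, 1 of 3 other probe sets correlated at −0.05 but lay above the array median on no array. The same was true of a probe set of NUSAP1 (−0.002) and another of MCM3 (0.12). The tested probe sets of a gene differed in sign for CCNE1, CENPA and MCM7 in hemangiosarcoma against hematoma, for AURKB, BIRC5, CENPF, MCM3, MCM5, MCM7, RRM2 and TOP2A in osteosarcoma against hematoma, and for CDK1, CENPF, MCM7, NUSAP1, PRC1 and TOP2A in hemangiosarcoma against osteosarcoma. In the last of these TOP2A gave −1.43 (SE 0.92) with the probe set used and 0.01 (SE 0.89) with its second one, neither of which passed. They also did so for UBE2C in DLBCL against leukemia, for MCM7, TYMS and UBE2C in T-zone lymphoma against leukemia, for AURKA, CCNB2, CDKN3, MCM7 and PCNA in hemangiosarcoma against T-zone lymphoma, and for KIF23, MCM7, PCNA and TPX2 in the golden retriever comparison; in DLBCL against T-zone lymphoma and hemangiosarcoma against DLBCL no gene had tested probe sets of opposite sign.

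Hemangiosarcoma lines had lower levels of many cell cycle genes than DLBCL. Of the 38 genes tested, 25 were lower in hemangiosarcoma at an adjusted p under 0.05 and none was higher, in a comparison in which 30.8% of all probe sets were lower and 30.8% higher. The mean was lower for 37 genes, where 62.7% of all genes were lower, and the median difference was −1.22 against −0.14 for all genes. Those that passed were 10 of 15 of S phase and replication, 9 of 13 mitotic cyclins, kinases and checkpoint genes, and 6 of 10 of the spindle and chromosomes. This comparison sets cultured lines against primary cells, so that culture and tumor type cannot be told apart.

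Among the replication genes, CCNE2 had 5.51, 6.25 and 8.10 as the lowest, median and highest value in hemangiosarcoma, against 9.30, 9.87 and 10.34 in DLBCL, and was 9.92-fold lower (−3.31, SE 0.34, adjusted p = 1.92e-07). MCM3 had 5.73, 7.14 and 8.47 in hemangiosarcoma, against 8.86, 9.72 and 10.04 in DLBCL (−2.61, SE 0.36, adjusted p = 6.01e-06). Neither gene overlapped between the groups, and neither did MCM5, TYMS, UBE2C or TOP2A, 6 genes in all, as held in this direction for 9.23% of all genes. All 6 MCM genes were lower, by 1.21 in MCM6 to 2.61 in MCM3, and each kept its call under every array left out and every other setting. CCNE1 was 0.62 lower without passing (adjusted p = 0.0790). Without Dal4, its highest line, it passed as lower (−0.82, adjusted p = 0.00168), as it did with golden retriever lines only (adjusted p = 0.00818), with array weights (adjusted p = 0.0189) and with quantile normalization (adjusted p = 0.0279).

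TOP2A was 17.1-fold lower (−4.10, SE 0.58, adjusted p = 9.00e-06), the largest difference of the set, and also lower with its second probe set (−2.84, adjusted p = 0.000744). UBE2C was lower by less than any other gene whose groups did not overlap (−0.65, SE 0.13, adjusted p = 0.000434). AURKB, the Aurora kinase of the chromosomal passenger complex, had 7.14, 8.96 and 10.87 as the lowest, median and highest value in hemangiosarcoma, against 10.57, 11.26 and 11.89 in DLBCL (−2.43, SE 0.52, adjusted p = 0.000604). CENPF had 4.06, 6.22 and 8.47 in hemangiosarcoma, against 7.10, 9.18 and 9.43 in DLBCL (−2.57, SE 0.58, adjusted p = 0.000966). In both genes the ranges overlapped at the upper end of the hemangiosarcoma lines.

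PRC1, which bundles the microtubules of the central spindle, was the single gene with a higher mean in hemangiosarcoma. Its lowest, median and highest values were 4.80, 7.75 and 9.20 in hemangiosarcoma, against 5.70, 7.11 and 7.89 in DLBCL (0.72, SE 0.55, adjusted p = 0.264), and the other PRC1 probe set that was tested gave 1.17 (adjusted p = 0.0778). Without Tucker, the lowest line, PRC1 passed as higher (adjusted p = 0.0477). The actin gap was 1.31 to 2.52 in the hemangiosarcoma lines, and without Chieftain 18 genes were lower with a median of −1.14.

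**Figure D4:**
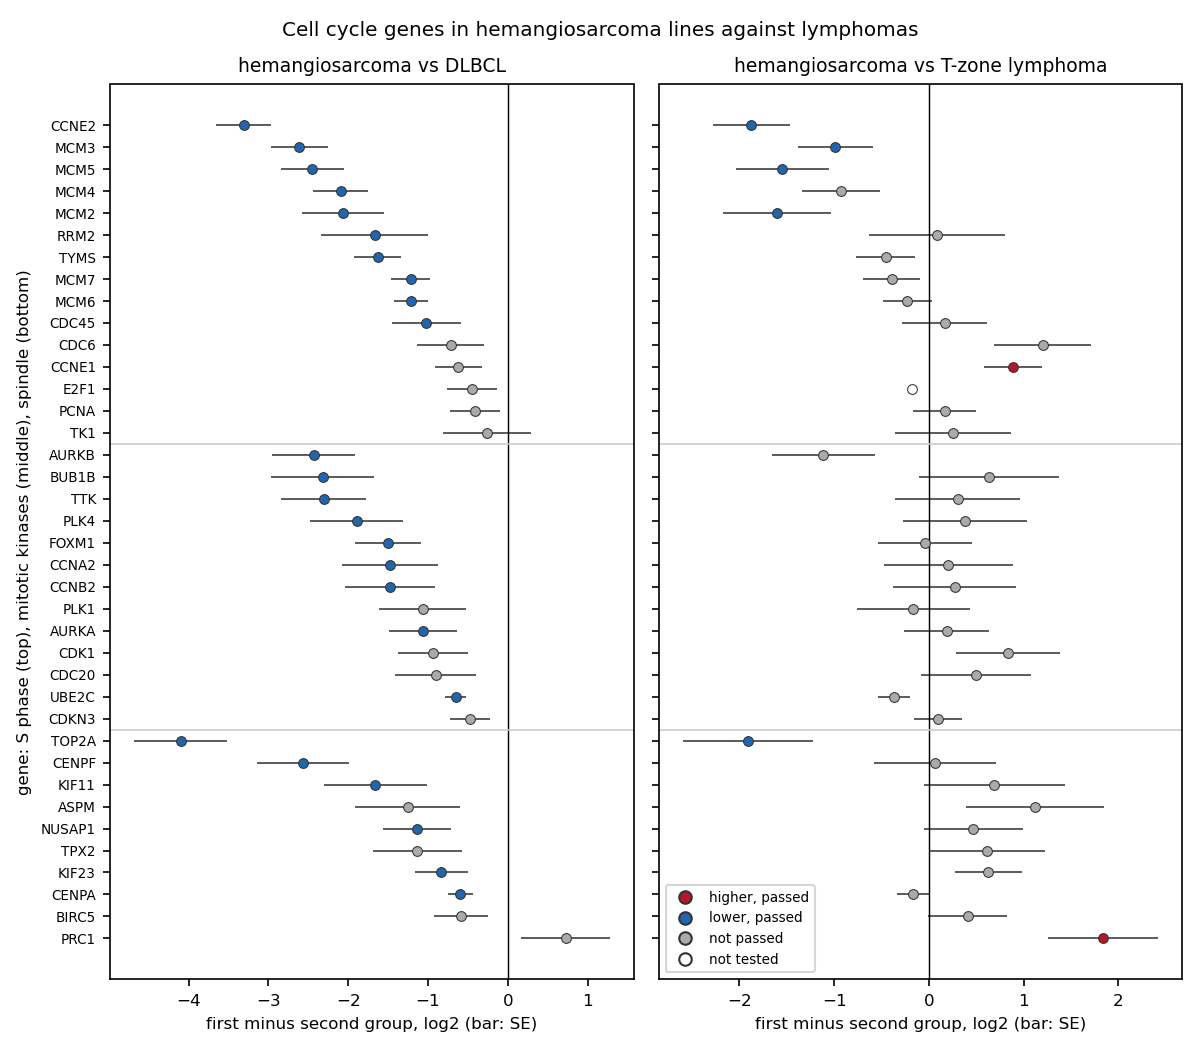
Difference in mean log2 intensity (points) with its SE (bars) for each cell cycle gene, hemangiosarcoma minus DLBCL on the left and hemangiosarcoma minus T-zone lymphoma on the right; red and blue points passed an adjusted p of 0.05 as higher and lower, grey did not, and the open point was not tested. On the left only PRC1 lies above 0, whereas on the right the points lie on both sides, with 2 higher and 5 lower genes that passed.

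Against T-zone lymphoma few genes passed for the same hemangiosarcoma lines, and in both directions. Of 37 tested genes 2 were higher and 5 lower, where 32.2% of all probe sets were higher and 28.8% lower, a larger share than of the cell cycle genes. The median SD of the cell cycle genes was 1.03 in each group, against 0.26 and 0.34 for all genes. A difference of a given size therefore passed less readily for them, and few calls do not mean small differences. The balance changed with single arrays, to 3 higher and 2 lower without Thunder and to 4 higher and 3 lower without Rose. The median difference was 0.17, against −0.10 for all genes, and it was −0.043 without Dal4, −0.020 without Niki and −0.19 without both ChadG4 and Dal4. PRC1 was 1.84 higher in hemangiosarcoma (SE 0.58, adjusted p = 0.0113), with 4.80, 7.75 and 9.20 as the lowest, median and highest value, against 4.74, 5.60 and 7.39 in T-zone lymphoma. CCNE1 was 0.89 higher (SE 0.31, adjusted p = 0.0194), with 6.22, 6.98 and 8.85 in hemangiosarcoma, against 5.46, 6.18 and 6.65 in T-zone lymphoma. The groups overlapped for both genes, and the CCNE1 call was lost without Niki (adjusted p = 0.0574).

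The 5 lower genes were CCNE2, MCM2, MCM3 and MCM5 of the replication genes, and TOP2A. CCNE2 had 5.51, 6.25 and 8.10 as the lowest, median and highest value in hemangiosarcoma, against 7.06, 8.31 and 9.93 in T-zone lymphoma (−1.88, SE 0.41, adjusted p = 0.000703). MCM5 had 7.36, 8.87 and 10.42 in hemangiosarcoma, against 9.73, 10.10 and 12.74 (−1.55, SE 0.49, adjusted p = 0.0115). The E cyclins thus differed in opposite directions, CCNE1 higher and CCNE2 lower. MCM2 (−1.60, adjusted p = 0.0211) and MCM3 (−0.99, adjusted p = 0.0391) were lower. MCM4, MCM6 and MCM7 had differences of −0.93, −0.23 and −0.39 and did not pass. Under some other settings MCM4 passed as lower, among them quantile normalization (adjusted p = 0.0218) and golden retriever lines only (adjusted p = 0.0309). CDC6, which did not pass either, passed as higher under some, among them array weights (adjusted p = 0.00536) and quantile normalization (adjusted p = 0.0478). TOP2A was −1.91 (SE 0.69, adjusted p = 0.0232) with the probe set used, but −0.11 (adjusted p = 0.908) with its second one. CCNE2, MCM5 and PRC1 kept their calls under every array left out, whereas the MCM3 call was lost under 8 of the 16 arrays left out and 7 of 11 other settings, and the MCM2 and TOP2A calls were each lost without Rose and without Thunder. Of the other genes with a lower mean, TYMS, AURKB, PLK1, UBE2C, FOXM1 and CENPA did not pass and E2F1 was not tested. Without Thunder and Fire, whose actin gaps were 4.03 and 3.30, 5 genes passed in all with a median of 0.09. The gaps of the other T-zone lymphomas, −0.30 to −0.05, all lay below the 1.31 to 2.52 of the hemangiosarcoma lines.

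The study also set its golden retriever hemangiosarcoma lines against other tumors, which was repeated here with 6 lines against 21 tumors. No cell cycle gene passed an adjusted p of 0.001, at which 5.4% of probe sets were higher and 2.47% lower. Without adjustment 9 of them had a p under 0.05, each with a lower level. The median difference was −0.24, against −0.12 for all genes. The largest differences by role were −1.93 for CCNE2 (SE 0.59, adjusted p = 0.0126), −1.09 for AURKB (SE 0.56, adjusted p = 0.135) and −2.46 for TOP2A (SE 0.85, adjusted p = 0.0251). With array weights CCNE2, UBE2C and TOP2A passed as lower. The 21 tumors mix cultured and primary cells and several tumor types, and the median ran from −0.48 without Frog to 0.10 without Tucker.

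The difference between the means of the S phase genes and of the spindle genes varied between arrays. The mean of the 15 S phase genes minus that of the 10 spindle genes carries no meaning as an absolute value, because different probe sets are set against each other. In each of the 6 groups the S phase mean also varied less, with an SD of 0.86 against 1.11 in hemangiosarcoma and 0.27 against 0.69 in DLBCL. The difference therefore tends to fall as the level of both rises. Its changes between arrays do not by themselves show a changed balance. It was 0.38 to 1.48 in DLBCL, 0.79 to 1.97 in T-zone lymphoma and 1.70, 2.32 and 2.05 in Rascal, Maddle and Forrest. In the cultured groups it was 0.39 to 1.55 in hemangiosarcoma, −0.13 to 1.18 in osteosarcoma and 1.25, 0.49 and −0.30 in Pippin, Baxter and Kylie. In each of the 6 groups the arrays with the lowest mean over the 38 genes were among those with the higher differences: Tucker with 1.55, OSCA59 with 1.16, Pippin with 1.25, Sally with 1.48, Niki and Fire with 1.80 and 1.97, and Maddle and Forrest with 2.32 and 2.05. Rose, the T-zone lymphoma with the highest level, had the lowest of its group at 0.79.

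**Figure D5:**
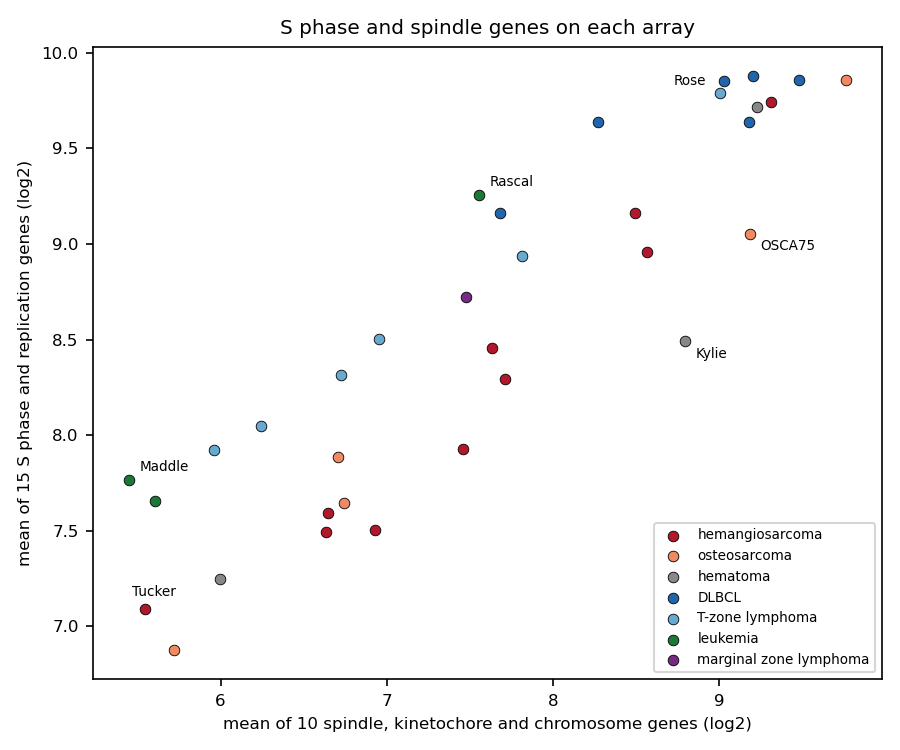
Mean log2 intensity of the 15 S phase and replication genes against that of the 10 spindle, kinetochore and chromosome genes on each of the 34 arrays, colored by group. Arrays run along a rising band, in which leukemias and T-zone lymphomas lie on the upper side and Kylie and OSCA75 on the lower side.

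Further genes of the same pathways were counted by lists, each to be read against the share of all probe sets that passed. In DLBCL against T-zone lymphoma 9.14% of all probe sets were higher and 9.32% lower. There 18 of 27 other replication genes and 26 of 41 other mitotic genes were higher and none lower. The list of the anaphase-promoting complex, which destroys cyclins and is not itself restricted to dividing cells, gave 4 higher and 1 lower of 13. That list held subunits and the co-activator FZR1. The DREAM and pocket protein genes, which repress cell cycle genes in resting cells, gave 2 higher and 1 lower of 9. Against leukemia, where 7.3% were higher and 6.15% lower, DLBCL had 12 of 27 and 25 of 41 higher, 4 of 13 and 0 of 9, and none lower in any of the lists. In hemangiosarcoma against DLBCL, where 30.8% were lower and 30.8% higher, 23 of 27 other replication genes and 27 of 41 other mitotic genes were lower and none higher; 2 of 13 anaphase-promoting complex genes were higher and 4 lower, and 1 of 9 DREAM genes was higher and 3 lower, so that the lower counts of the last 2 lists lay near the share of all probe sets. Against T-zone lymphoma, where 32.2% were higher and 28.8% lower, hemangiosarcoma had 1 higher and 4 lower of 23 other replication genes and 3 higher and 4 lower of 39 other mitotic genes, 3 higher and 3 lower of 13, and 1 higher and 3 lower of 9. Against osteosarcoma, where 16.1% were higher and 11.7% lower, it had 3 of 24 other replication genes lower, none of 42 other mitotic genes that passed, and 3 higher and 1 lower in each of the anaphase-promoting complex and DREAM lists. Against hematoma, where 0.133% were higher and 0.133% lower, none of the 4 lists had a gene that passed in hemangiosarcoma, and in osteosarcoma 1 of 10 DREAM genes was lower, where 3.1% of probe sets were. None passed in T-zone lymphoma against leukemia, and in the golden retriever comparison, where 5.4% were higher and 2.47% lower, 1 replication gene was lower and 1 anaphase-promoting complex gene higher.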

How the data were processed

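RNA of 34 canine samples was hybridized to Affymetrix Canine_2 arrays, 1 array per sample. The authors deposited log2 intensities obtained by RMA with affy, whose versions are not given in the sources used here; no further normalization was applied. Array medians ranged from 5.57 to 5.77, and no 2 arrays correlated above 0.985. Of 43035 probe sets 175 controls were left out; of the rest, 29254 carried 1 gene symbol in the platform annotation, 439 several and 13167 none. No count or depth underlies array values, so the number of arrays limits precision.

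Groups came from the sample labels, and p-values measure the spread between these samples. Each of 9 comparisons was fitted with limma 3.58.1 in R 4.3.3 on its own arrays over all probe sets that exceeded the median of their array on a number of arrays equal to the smaller group or larger, with Benjamini-Hochberg adjustment; the script was tested on simulated data. Thresholds were 0.1 for hemangiosarcoma against hematoma, 0.001 against 21 tumors, and 0.05 otherwise. Differences are first minus second group. Named genes are the 2 per role with the smallest adjusted p that passed (or the largest difference where none passed), TOP2A, genes of opposite sign, and genes whose probe sets disagree. The 44 genes, role groups, pathway and marker lists were chosen with earlier results of these data known. Alternatives were other normalizations, filters, probe set choices, variance models and sets of arrays. Figures were drawn with matplotlib 3.10.9.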

Additional observations from a re-analysis of the deposited data

Results flagged for a closer look

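In 92 checks of groups of 4 to 10 arrays, 7 had 1 array standing apart from the others by more than Dixon's criterion allows; chance alone marks about 1 in 20 such groups. Among the DLBCL, Sally had the lowest mean of the S phase genes, 9.16, with the next array at 9.64, and the lowest MCM5, 10.53, with the next at 11.41. Among the T-zone lymphomas, Rose had the highest MCM5, 12.74 (next 10.80), and Fire the highest UBE2C, 8.17 (next 7.23); the actin gap of Fire was 3.30. Among the hemangiosarcoma lines, Dal4 had the highest CCNE1, 8.85 (next 7.60), and Tucker the highest difference between S phase and spindle genes, 1.55 (next 0.94); the actin gap of Tucker, 2.52, was the widest of its group. Among the osteosarcoma lines, OSCA20 had the lowest UBE2C, 6.52 (next 7.35). The part of RNA quality in these values was not tested.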

How the results depend on the processing

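Of 141 counts and medians of the cell cycle genes under settings other than leaving out 1 array, 129 kept their direction and stayed within 1.5 times the value reported, or for medians within the spread. A count of 0 that stayed 0 was taken as kept. The spread came from the SDs of the array means within groups, 0.48 in DLBCL to 1.53 in hematoma. The share kept is therefore a loose measure, above all where no gene passed. In hemangiosarcoma against osteosarcoma array weights passed 2 genes with a median of 0.38, and 0 genes passed with all 34 arrays in 1 fit, with the mean of probe sets, with golden retriever lines only, without ChadG4 and Dal4, and without arrays with an actin gap above 3 (median 0.59). In DLBCL against T-zone lymphoma 11 passed with all 34 arrays in 1 fit and 10 without arrays with such a gap; the settings on the actin gap were chosen after seeing the data. Without ChadG4 and Dal4 the median of hemangiosarcoma against T-zone lymphoma was −0.19, and array weights passed 3 genes for golden retriever lines against 21 other tumors. The causes were not tested.

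With 1 array left out, the count and the median ranged from 0 to 0 and −1.29 to 0.24 in hemangiosarcoma against hematoma, 0 to 1 and −1.26 to 0.40 in osteosarcoma against hematoma, 0 to 2 and −0.46 to 0.37 in hemangiosarcoma against osteosarcoma, 15 to 33 and 1.21 to 1.62 in DLBCL against T-zone lymphoma, 11 to 34 and 1.92 to 2.68 in DLBCL against leukemia, 0 to 0 and 0.31 to 1.31 in T-zone lymphoma against leukemia, 17 to 32 and −1.38 to −1.05 in hemangiosarcoma against DLBCL, 5 to 9 and −0.043 to 0.44 in hemangiosarcoma against T-zone lymphoma, and 0 to 0 and −0.48 to 0.10 for golden retriever lines against 21 other tumors. Of the calls, 15 of 24, 11 of 27, 17 of 25 and 3 of 7 held under every array left out in DLBCL against T-zone lymphoma and leukemia and in hemangiosarcoma against DLBCL and T-zone lymphoma, in that order. Under every one of the other settings 9 of 24, 17 of 27, 17 of 25 and 2 of 7 held, in the same order. No gene's call changed sign. No paired analysis was possible because the samples come from different dogs and the labels carry no replicate numbers. Probe sets near the array median, such as that of E2F1, limit what the arrays can show.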
